A study of Rattus norvegicus with 12 samples.

Results

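Carbonyl-metabolizing enzymes were followed in bronchi of male Wistar (Wistar Han) rats that had inhaled 2,3-pentanedione (PD), a diketone of artificial butter flavoring, or air. They were taken as every gene whose symbol begins with Akr, Cbr, Aldh or Adh and a digit, plus Dcxr, Pecr, Glo1 and Hagh. On the arrays 46 symbols fitted this rule, and 44 of them had a probe set that names no other gene, of 14217 genes measured in this way. Aldh3b2 and Aldh3b3 share a single probe set and were left out. For each gene the probe set with the highest mean log2 signal over the 12 arrays was used.

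The groups were fibrotic bronchi of PD-exposed rats (3 arrays, replicates 3, 7 and 9), non-fibrotic bronchi of PD-exposed rats (3 arrays, replicates 4, 8 and 10) and bronchi of air-exposed controls (6 arrays, replicates 1 to 6). Exposed rats had breathed 200 ppm PD over 2 weeks. Tissue was cut by laser from frozen lung. Fibrotic specimens were polyps or plaques in the airway lumen with the wall beneath them, while non-fibrotic and control specimens were bronchi with their epithelium and wall. Fibrotic and non-fibrotic bronchi came in part from the same rats, but the labels do not tie an array to a rat, so the p-values take no account of this and measure only the spread between these specimens.

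Signals are MAS5 values, which the Affymetrix software scales to the same trimmed mean on every array, and they are given here as log2. A level of 6.52, the highest signal of bacterial control probe sets whose transcripts are added to no sample, served as background. Of the 44 enzymes, 27 were over it on every array, 14 on some and 3 on none. Because probe sets bind with different strength, levels were compared between groups and never between genes. A gene was called when limma's adjusted p was under 0.01.

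The controls were not of 1 kind. Labels of controls 1 and 2 have the form of those of the exposed arrays, while labels of controls 3 to 6 have another. Added poly-A RNA averaged 9.36 on the log2 scale on fibrotic arrays, 10.77 on non-fibrotic arrays, 10.35 on controls 3 to 6 and 2.32 on controls 1 and 2. The 3′ minus 5′ difference of the GAPDH control probe sets, which grows as RNA is degraded or copied short, was 1.87 on fibrotic arrays, 2.19 on non-fibrotic arrays, 0.78 on controls 3 to 6 and 1.60 on controls 1 and 2, and its part in the results was not tested. Between controls 3 to 6 and controls 1 and 2, limma called 0 of the 44 enzymes, with 7 at an unadjusted p under 0.05, while 0.605% of all genes were called. Akr7a3 was 2.44 log2 units higher in controls 3 to 6 (adjusted p = 0.024). In either direction 12 enzymes differed by over 1 log2 unit, as did 22.8% of all genes. The median absolute difference was 0.51 for the enzymes and 0.54 for all genes. The counts of calls are therefore given below with each set of controls as well, and so are the changes of some genes.

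Most of these enzymes act on aldehydes, ketones or the alcohols they are made from. Carbonyl and aldo-keto reductases, most of them using NADPH, turn ketones and aldehydes into alcohols, alcohol dehydrogenases interconvert alcohols and aldehydes, aldehyde dehydrogenases oxidize aldehydes to acids, and the glyoxalases Glo1 and Hagh turn methylglyoxal into lactate with the help of glutathione. Several are abundant in the secretory epithelium of the airway, where inhaled chemicals are first metabolized. A vicinal diketone such as PD can be reduced by Dcxr, known as dicarbonyl reductase, and by some members of the other reductase families.

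In fibrotic bronchi 10 of the 44 enzymes fell and 1 was called higher against air controls, together 25% of the family, where 12.5% of all genes were called. The lower calls were 22.7% of the family, beside 8.38% of all genes. Pecr, Akr1c15, Aldh1a1 and Aldh6a1 fell most, by 3.27 to 4.08 on the log2 scale. Aldh2, Aldh3b1, Akr7a2, Dcxr, Akr1e2 and Aldh4a1 fell by 1.33 to 2.35. The median change of the 44 enzymes was -0.42, beside 0.10 for all genes, and it was -0.64 without control 1 and -0.17 against controls 1 and 2 alone. In non-fibrotic bronchi Pecr alone was called, which is 2.27% of the family, where 0.619% of all genes were called.

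**Figure D1:**
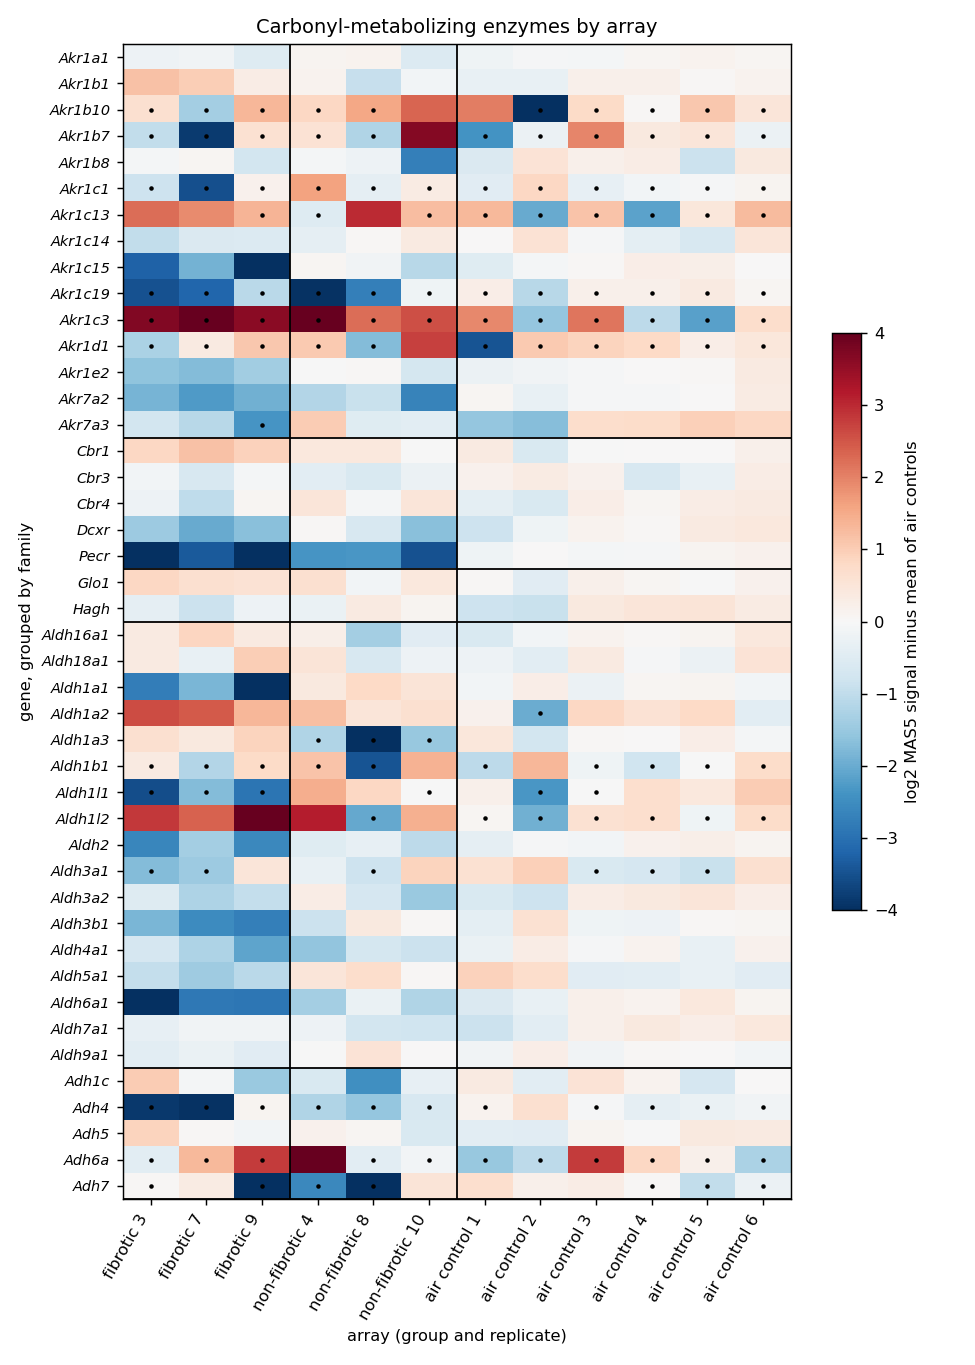
Each row is 1 of the 44 enzymes and each column 1 array, and the colour gives the log2 MAS5 signal minus the mean of the 6 air controls, on a scale that ends at 4 in both directions. A black dot marks a signal under the background level of 6.52. Pecr is blue on the fibrotic and non-fibrotic arrays alike, while Aldh1a1, Akr1c15 and Akr1e2 are blue mainly on the fibrotic ones.

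Pecr, a peroxisomal reductase of enoyl-CoA thioesters in fatty acid elongation, changed most (probe set 1368016_at). Its log2 signal was 8.02, 9.38 and 8.63 in fibrotic bronchi, 10.40, 10.44 and 9.27 in non-fibrotic bronchi, and 12.59, 12.76, 12.66, 12.70, 12.86 and 12.93 in air controls. Every exposed array lay below every control, and fibrotic replicate 7 overlapped the lowest non-fibrotic array. The fall was 16.9-fold in fibrotic bronchi (log2 change -4.08, standard error 0.29, adjusted p = 1.8e-07) and 6.58-fold in non-fibrotic bronchi (-2.72, standard error 0.29, adjusted p = 0.00053). Fibrotic against non-fibrotic bronchi differed by -1.36, which was not called (adjusted p = 0.018). Against controls 1 and 2 alone, the non-fibrotic difference was -2.64 with an adjusted p of 0.051, and against controls 3 to 6 it was -2.76 with an adjusted p of 0.00075.

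Dcxr, the dicarbonyl and L-xylulose reductase, fell in fibrotic bronchi (1367909_at). Fibrotic arrays had log2 signals of 8.65, 8.09 and 8.43, non-fibrotic arrays 10.16, 9.45 and 8.43, and air controls 9.28, 9.91, 10.25, 10.16, 10.46 and 10.53. The fibrotic arrays lay under all controls, whereas the non-fibrotic arrays spread from the fibrotic level to that of the controls. In fibrotic bronchi the difference from controls was 3.27-fold (log2 change -1.71, standard error 0.36, adjusted p = 0.0034), and in non-fibrotic bronchi it was -0.75 (adjusted p = 0.19). Leaving out any 1 of the 3 fibrotic arrays raised the adjusted p of the fibrotic difference above 0.01, to at most 0.024, and against controls 1 and 2 alone it was -1.21 (adjusted p = 0.26).

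Cbr1, a broad NADPH-dependent reductase of quinones, prostaglandins and other carbonyls, lay the other way (1368037_at). Its signal was 10.01, 10.37 and 10.12 in fibrotic bronchi, 9.63, 9.60 and 9.17 in non-fibrotic bronchi and between 8.59 and 9.56 in air controls, with a control median of 9.20. All 3 fibrotic arrays were above all controls, but the difference of 0.98 log2 units was not called (standard error 0.25, adjusted p = 0.014). Cbr1 was called in 7 of the alternative settings and fits, each by its own threshold. These include the looser adjusted p threshold, which was applied to the same fit and adds no separate evidence. The others include controls 3 to 6 alone, the fit without control 1 and quantile normalization. Over the alternative settings and fits its adjusted p ranged over 0.0039 to 0.17. Of the other short-chain reductases, Cbr3 differed by -0.28 and Cbr4, which serves mitochondrial fatty acid synthesis, by -0.37 in fibrotic bronchi, and neither was called.

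**Figure D2:**
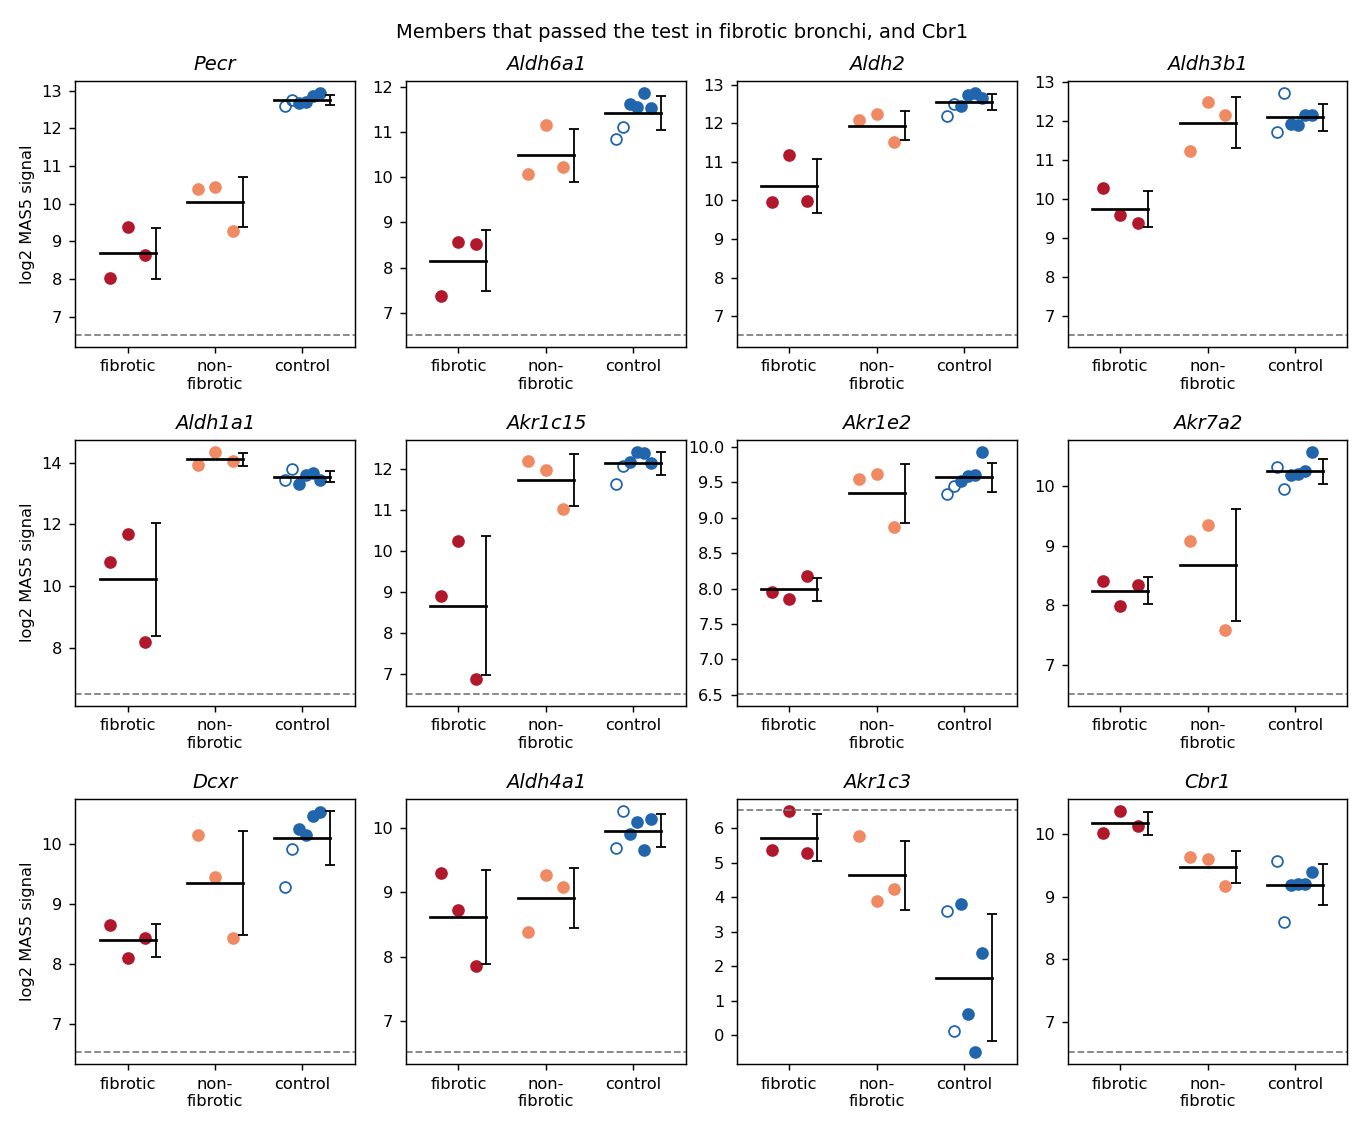
Each panel shows 1 gene, with the log2 MAS5 signal of every array in fibrotic, non-fibrotic and air control bronchi, a line at the group mean and a bar of 1 SD. Open circles are controls 1 and 2, and the dashed line is the background level of 6.52. The 10 genes that fell have fibrotic arrays under all controls, Akr1c3 stays below the background on all arrays, and Cbr1, which was not called, has its fibrotic arrays above the controls.

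Among aldehyde dehydrogenases 5 of 17 fell in fibrotic bronchi (29.4%, beside 8.38% of all genes) and 0 rose, and 4 of these 5 were also lower than in non-fibrotic bronchi (23.5% of the 17, beside 3.83% of all genes). None was called in non-fibrotic bronchi against controls. There, 4 of the 17 had an unadjusted p under 0.05, as did 3933 of all 14217 genes. Aldh1a1, a cytosolic enzyme that oxidizes retinaldehyde to retinoic acid and also lipid aldehydes, had signals of 10.76, 11.70 and 8.18 in fibrotic bronchi (1387022_at). In non-fibrotic bronchi they were 13.92, 14.34 and 14.04, and in air controls 13.43, 13.80, 13.29, 13.61, 13.66 and 13.44. Non-fibrotic arrays lay above all controls and fibrotic arrays below them. The fibrotic difference was 10.0-fold against controls (log2 change -3.33, standard error 0.48, adjusted p = 0.00017) and 14.8-fold against non-fibrotic bronchi (-3.89, adjusted p = 0.00043), while non-fibrotic bronchi differed from controls by 0.56 (adjusted p = 0.48).

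Aldh6a1, the methylmalonate-semialdehyde dehydrogenase of valine breakdown in mitochondria, was at 7.37, 8.56 and 8.53 in fibrotic bronchi (1368814_at). It was at 10.08, 11.16 and 10.23 in non-fibrotic bronchi and between 10.85 and 11.86 in air controls. Fibrotic arrays overlapped neither other group. It was 9.67-fold lower than in controls (log2 change -3.27, standard error 0.32, adjusted p = 4.2e-06), and the difference from non-fibrotic bronchi was -2.34 (adjusted p = 0.00096). Its other probe set, 1387344_at, was called in the same direction against controls (-2.91) and against non-fibrotic bronchi (-2.41).

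Aldh2, the mitochondrial enzyme that oxidizes acetaldehyde, had signals of 9.95, 11.17 and 9.98 in fibrotic bronchi, 12.07, 12.23 and 11.51 in non-fibrotic bronchi and 12.19 to 12.78 in air controls (1367999_at). Fibrotic replicate 7 was the highest of its group and still below the lowest non-fibrotic array. The fibrotic change was -2.18 against controls (4.53-fold lower, standard error 0.26, adjusted p = 2.8e-05) and -1.57 against non-fibrotic bronchi (adjusted p = 0.0037). The call against non-fibrotic bronchi was lost without fibrotic replicate 3, fibrotic replicate 9 or non-fibrotic replicate 8, with an adjusted p of at most 0.025.

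Aldh3b1, which oxidizes medium- and long-chain lipid aldehydes, was at 10.27, 9.59 and 9.37 in fibrotic bronchi, 11.24, 12.49 and 12.14 in non-fibrotic bronchi and 11.71 to 12.71 in air controls (1396383_at). The fibrotic arrays stood apart from the 2 other groups, which overlapped each other. It fell by 2.35 against controls (5.10-fold, standard error 0.29, adjusted p = 3.3e-05) and by 2.21 against non-fibrotic bronchi (adjusted p = 0.00057). Aldh4a1, a mitochondrial enzyme of proline breakdown, was at 9.29, 8.72 and 7.85 in fibrotic bronchi, 8.38, 9.26 and 9.08 in non-fibrotic bronchi and 9.65 to 10.26 in air controls (1372277_at). Both exposed groups lay wholly under the controls. Its fibrotic change of -1.33 was called (standard error 0.32, adjusted p = 0.0082) and its non-fibrotic change of -1.05 was not (adjusted p = 0.060), and the fibrotic call was lost in 8 of the 12 fits that left out 1 array.

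The other 12 aldehyde dehydrogenases were not called in any of the 3 comparisons. Aldh1a2, another retinaldehyde dehydrogenase, was at 9.89, 9.73 and 8.60 in fibrotic bronchi, 8.48, 7.75 and 7.90 in non-fibrotic bronchi and 5.31 to 8.10 in air controls. Its fibrotic arrays were above all others, with a difference of 2.13 from controls (standard error 0.55, adjusted p = 0.013). Aldh1a3, the last of the retinaldehyde dehydrogenases measured, was at 8.24, 7.98 and 8.50 in fibrotic bronchi, 6.41, 1.15 and 6.10 in non-fibrotic bronchi and 6.87 to 8.06 in air controls. All non-fibrotic arrays were under background, so that non-fibrotic bronchi were at least 2.12-fold lower than controls (adjusted p = 0.046), taking the background level in place of the dim group.

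Aldh1l1 and Aldh1l2, the cytosolic and the mitochondrial enzyme that oxidize formyl-tetrahydrofolate, lay in opposite directions. Aldh1l1 was under background on all fibrotic arrays, at 2.93, 4.72 and 3.54, against 7.92, 7.28 and 6.46 in non-fibrotic bronchi and 4.13 to 7.49 in air controls. Aldh1l2 was at 8.47, 7.98 and 9.97 in fibrotic bronchi, 8.78, 3.60 and 7.04 in non-fibrotic bronchi, and under background in all controls. Aldh1l2 was at least 4.88-fold higher in fibrotic bronchi than in controls by the same bound, without being called (adjusted p = 0.023). Aldh1l1 was not called in that comparison either (adjusted p = 0.014). It has no such bound, because the mean of its controls, 6.47, was itself under background, and control 2 lay among the fibrotic arrays.

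Aldh5a1, the succinic semialdehyde dehydrogenase, gave different calls with different probe sets. The brightest, 1371062_at, differed by -1.14 between fibrotic bronchi and controls (adjusted p = 0.031), and the second, 1379900_at, by -2.35 (adjusted p = 0.0056). The dimmest, 1391657_at, differed the other way by 1.39 (adjusted p = 0.30), with every group mean under background. With 1371062_at, controls 3 to 6 minus controls 1 and 2 was -1.22 (limma's adjusted p = 0.038). Aldh3a2, the fatty aldehyde dehydrogenase, differed by -0.90 and Aldh9a1, which acts in carnitine synthesis, by -0.38 in fibrotic bronchi. Aldh3a1, the main aldehyde dehydrogenase of the cornea, was at 5.11, 5.39 and 7.31 in fibrotic bronchi, 6.55, 6.02 and 7.72 in non-fibrotic bronchi and 5.95 to 7.79 in air controls, near background throughout. Aldh7a1, Aldh16a1, Aldh18a1 and Aldh1b1 had fibrotic differences between -0.20 and 0.53.

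Of 15 aldo-keto reductases 3 fell and 1 was called higher in fibrotic bronchi, which is 26.7%, beside 12.5% of all genes. Akr1c15, a reductase described in rats, was at 8.89, 10.24 and 6.86 in fibrotic bronchi, 12.20, 11.98 and 11.02 in non-fibrotic bronchi and 11.64, 12.07, 12.17, 12.41, 12.38 and 12.15 in air controls (1394681_at). The fibrotic arrays were spread widely, with an SD of 1.70, and all lay below the other 2 groups. The fall was 11.1-fold against controls (log2 change -3.47, standard error 0.49, adjusted p = 0.00014). Against non-fibrotic bronchi it was 8.40-fold (-3.07, adjusted p = 0.0031), a call lost without fibrotic replicate 3 or non-fibrotic replicate 8 (adjusted p at most 0.018).

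Akr1e2, a reductase of anhydrofructose in mice and humans, was at 7.95, 7.85 and 8.17 in fibrotic bronchi, 9.55, 9.62 and 8.86 in non-fibrotic bronchi and 9.34 to 9.93 in air controls (1371997_at). The fibrotic arrays were close together and below all others. It fell by 1.58 against controls (2.99-fold, standard error 0.26, adjusted p = 0.00049) and by 1.35 against non-fibrotic bronchi, where the adjusted p of 0.0097 rose above 0.01 in 10 of the 12 fits that left out 1 array. Akr7a2, a reductase of succinic semialdehyde, was at 8.40, 7.99 and 8.34 in fibrotic bronchi, 9.08, 9.35 and 7.59 in non-fibrotic bronchi and 9.95 to 10.58 in air controls (1367843_at). As with Pecr and Aldh4a1, all exposed arrays were below all controls. Its fibrotic change was -2.01 (4.02-fold lower, standard error 0.33, adjusted p = 0.00053), and its non-fibrotic change of -1.57 was not called (adjusted p = 0.019).

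Akr1c3 met the threshold for a higher level in fibrotic bronchi (adjusted p = 0.0098), but all 12 of its arrays were under background. Its signals were 5.37, 6.50 and 5.29 in fibrotic, 5.77, 3.89 and 4.24 in non-fibrotic and -0.50 to 3.80 in control bronchi, so no fold change is given. In RefSeq's annotation of the GRCr8 assembly, Akr1e2 and 6 Akr1c genes measured here lie in 1 cluster, in which Akr1c15 and Akr1e2 fell. Akr1c14, a steroid reductase in the same cluster, differed by -0.70 in fibrotic bronchi (adjusted p = 0.15), Akr1c1 and Akr1c19 were under background on every array, and Akr1c13 was over it on 3 of the 12 arrays. Members of this cluster are close in sequence, and how far their probes cross-hybridize was not tested.

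Aldose reductase, Akr1b1, was at 11.64, 11.45 and 10.76 in fibrotic bronchi, 10.62, 9.53 and 10.35 in non-fibrotic bronchi and 10.17 to 10.66 in air controls (1367734_at). Fibrotic arrays were above all others, without a call (0.82 against controls, adjusted p = 0.043, and 1.12 against non-fibrotic bronchi, adjusted p = 0.031). Its relative Akr1b8 was at 11.45, 11.61 and 10.78 in fibrotic bronchi, 11.46, 11.32 and 8.79 in non-fibrotic bronchi and 10.65 to 12.07 in air controls, and the groups overlapped. Akr1b10, Akr1b7 and Akr1d1 were under background on most arrays. Akr1a1, the general aldehyde reductase, differed by -0.28 in fibrotic and by -0.11 in non-fibrotic bronchi, with standard errors of 0.18, and its 12 signals lay between 12.31 and 13.01.

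Akr7a3, the aflatoxin aldehyde reductase, could not be read against the controls as 1 group. It was at 7.82, 7.44 and 6.19 in fibrotic bronchi and 9.58, 8.06 and 8.14 in non-fibrotic bronchi. Controls 3 to 6 were at 9.27, 9.28, 9.51 and 9.39, and controls 1 and 2 at 7.01 and 6.85. The fibrotic difference was -1.40 over all controls (adjusted p = 0.15), and it turned to 0.22 against controls 1 and 2 alone and was called lower against controls 3 to 6 alone.

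The 2 glyoxalases and the 5 alcohol dehydrogenases gave no call in any comparison. In fibrotic bronchi 1 of each family had an unadjusted p under 0.05, as did 5298 of all 14217 genes. Glo1, the first enzyme of methylglyoxal removal, was at 11.27, 11.08 and 11.02 in fibrotic bronchi, 11.07, 10.34 and 10.86 in non-fibrotic bronchi and 9.97 to 10.63 in air controls (1399098_at). The fibrotic arrays were above all controls by a mean of 0.69 (standard error 0.22, adjusted p = 0.038). Hagh, the second enzyme, differed by -0.47, but was at 9.17 to 9.37 in controls 3 to 6 and at 8.01 and 7.95 in controls 1 and 2, and its fibrotic difference turned to 0.39 against controls 1 and 2 alone. Adh5, which oxidizes the glutathione adduct of formaldehyde, differed by 0.29 and Adh1c, a classical alcohol dehydrogenase, by -0.18 in fibrotic bronchi. Adh7, an enzyme of retinol and ethanol oxidation, was at or near background in all groups, with 6.45, 6.72 and 0.22 in fibrotic, 3.81, 1.16 and 6.92 in non-fibrotic and 5.41 to 7.07 in control bronchi, and Adh4 and Adh6a were mostly under it.

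**Figure D3:**
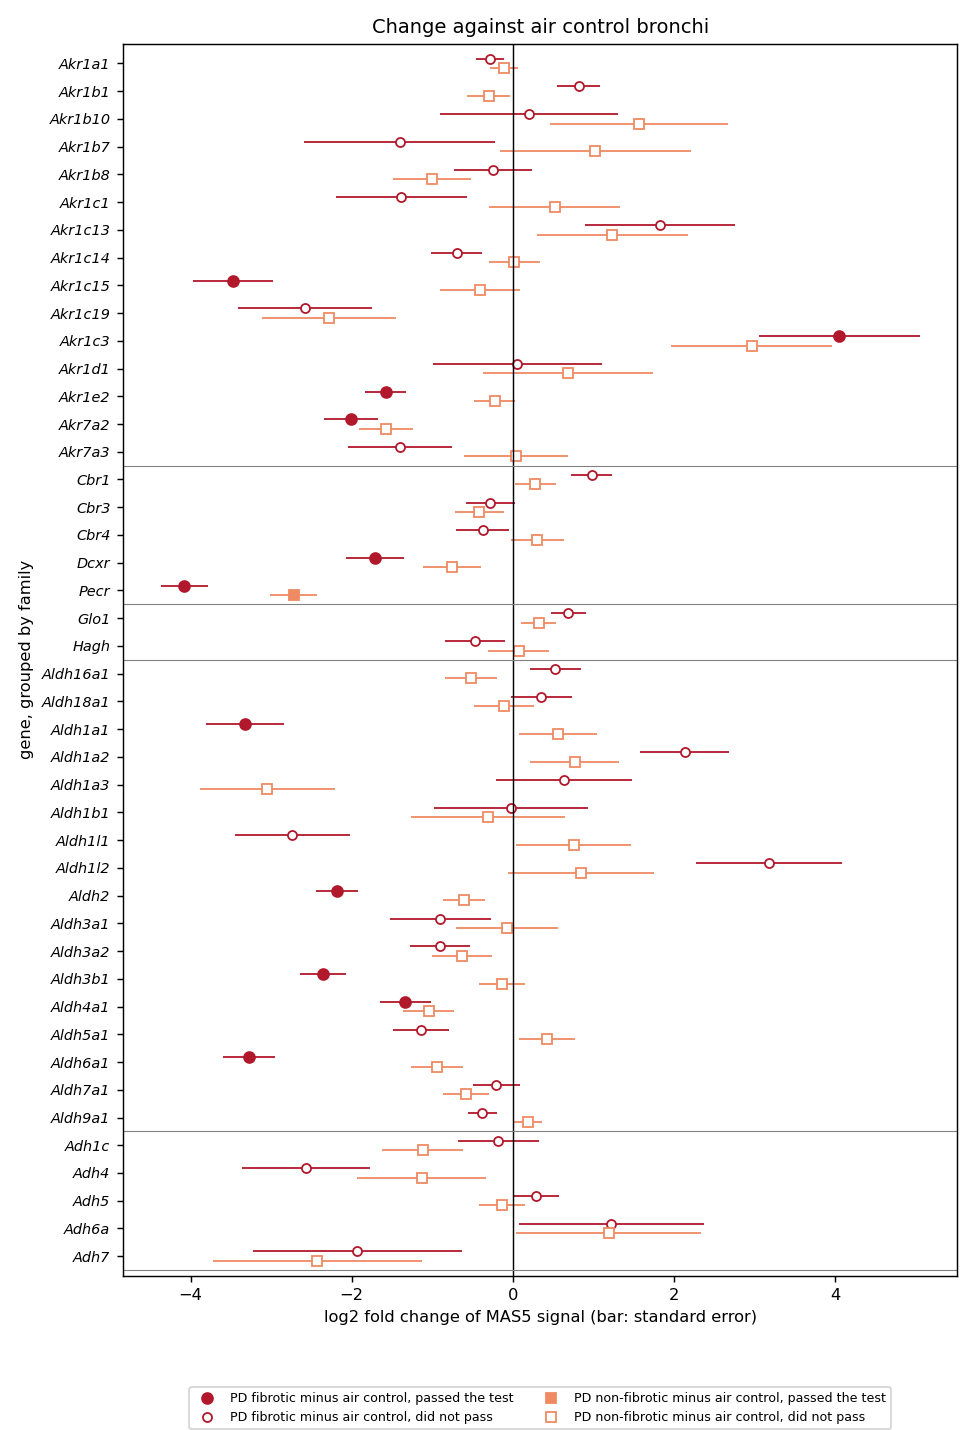
Points give the log2 fold change of each enzyme against air controls, with bars of 1 standard error, for fibrotic (circles) and non-fibrotic bronchi (squares), and filled points passed the test. In fibrotic bronchi 10 enzymes are filled on the left of 0, and Akr1c3, whose signals are under background, on the right, while in non-fibrotic bronchi Pecr is filled alone.

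Fibrotic and non-fibrotic bronchi of exposed rats differed from each other in 6 of the 44 enzymes, which is 13.6%, where 5.3% of all genes were called and 3.83% were lower in fibrotic bronchi. All 6 enzymes were lower in fibrotic bronchi, namely Aldh1a1, Aldh3b1, Aldh6a1, Akr1c15, Aldh2 and Akr1e2. Without fibrotic replicate 3 or non-fibrotic replicate 8, 3 of the 6 calls remained, those of Aldh1a1, Aldh3b1 and Aldh6a1. For 9 of the 10 enzymes that fell in fibrotic bronchi, the mean of the non-fibrotic bronchi lay between those of fibrotic and control bronchi, and Aldh1a1 was the exception. The fibrotic group lay wholly under the controls for 12 enzymes and wholly above them for 7, and 13.4% and 15.1% of all genes did so. Non-fibrotic bronchi lay wholly under the controls for 5 enzymes and above them for 2 (6.37% and 8.4% of all genes), and fibrotic bronchi lay wholly under non-fibrotic bronchi for 11 and above them for 5 (13.3% and 14.1% of all genes).

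The set of controls bore on these counts. Of the 11 calls in fibrotic bronchi, 10 held against controls 3 to 6 alone and 3, those of Pecr, Aldh6a1 and Aldh3b1, against controls 1 and 2 alone, a fit with 2 controls. Against controls 1 and 2 the changes of the 10 lower genes ranged from -4.00 for Pecr to -1.21 for Dcxr, none with a turned sign. Leaving out each array in turn kept 8 of the 11 calls every time, those of Pecr, Aldh6a1, Aldh2, Aldh3b1, Aldh1a1, Akr1c15, Akr1e2 and Akr7a2, while Dcxr was lost in 3, Aldh4a1 in 8 and Akr1c3 in 10 of the 12 fits.

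Markers of ciliated and club cells moved in the same direction as the enzymes that fell. All 12 ciliated cell markers measured fell in fibrotic bronchi, and their summed signal was 5605 to 6327 in fibrotic, 30413 to 43650 in non-fibrotic and 38835 to 51359 in control bronchi. Of 9 club cell markers 8 fell, with sums of 6500 to 15010 in fibrotic, 43670 to 80602 in non-fibrotic and 64958 to 150180 in control bronchi. The club cell sums were 112320 and 150180 in controls 1 and 2 and 64958 to 95764 in controls 3 to 6, which overlapped the non-fibrotic range. Scgb3a1 and Cyp2a3 were under background on all fibrotic arrays. Goblet cell markers fell for 2 of 7, whereas 0 of 8 basal and squamous cell markers were called, with a median log2 change of 1.36. Of these 8 markers 3 had an unadjusted p under 0.05, as did 5298 of all 14217 genes. Alveolar type II markers fell for 3 of 8, and macrophage and fibroblast markers rose for 6 of 12 and 4 of 9. Of all genes, 8.38% were called lower and 4.13% higher in fibrotic bronchi. In non-fibrotic bronchi 3 of 9 club cell and 1 of 12 ciliated cell markers fell, where 0.436% of all genes were called lower. In such bulk tissue, fewer cells of a type and less RNA per cell cannot be told apart, and the part of cell composition in the enzymes' changes was not tested.

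To show the sequence upstream of genes that fell together, the 250 bases before the start are given 5′ to 3′ for 1 gene of each pattern (RefSeq, GRCr8). Capitals mark the CCAAT box (CCAAT or its complement), the core of the antioxidant response element (TGACNNNGC or its complement), a forkhead motif (TGTTTAC) and a ciliary RFX half-site (GTTGCCA), searched on both strands.
Pecr, lower in both exposed groups, chr9:81375807-81376056, minus strand: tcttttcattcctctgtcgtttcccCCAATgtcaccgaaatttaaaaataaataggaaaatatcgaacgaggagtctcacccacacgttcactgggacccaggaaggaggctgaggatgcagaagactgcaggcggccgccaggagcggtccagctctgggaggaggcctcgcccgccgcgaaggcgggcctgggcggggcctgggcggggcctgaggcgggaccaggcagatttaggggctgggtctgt
Aldh1a1, lower in fibrotic bronchi and not in non-fibrotic bronchi, chr1:227537370-227537619, plus strand: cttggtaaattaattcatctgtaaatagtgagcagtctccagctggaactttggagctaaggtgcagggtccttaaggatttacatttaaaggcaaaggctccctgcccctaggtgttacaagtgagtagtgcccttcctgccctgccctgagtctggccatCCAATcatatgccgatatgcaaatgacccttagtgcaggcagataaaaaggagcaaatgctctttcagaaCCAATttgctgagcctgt
Aldh6a1, lower in fibrotic bronchi with both probe sets, chr6:109829726-109829975, minus strand: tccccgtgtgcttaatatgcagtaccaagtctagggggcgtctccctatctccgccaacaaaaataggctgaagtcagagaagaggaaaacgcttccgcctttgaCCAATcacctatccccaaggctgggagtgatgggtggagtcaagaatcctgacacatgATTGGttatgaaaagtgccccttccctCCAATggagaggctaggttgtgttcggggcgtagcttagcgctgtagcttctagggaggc
Dcxr, the diketone reductase, chr10:106506620-106506869, minus strand: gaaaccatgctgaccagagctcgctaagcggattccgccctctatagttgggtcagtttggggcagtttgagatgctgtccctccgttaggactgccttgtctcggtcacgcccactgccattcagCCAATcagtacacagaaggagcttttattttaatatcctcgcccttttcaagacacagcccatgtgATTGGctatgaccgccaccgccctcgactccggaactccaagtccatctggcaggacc
Akr1c15, the aldo-keto reductase that fell most, chr17:71117958-71118207, minus strand: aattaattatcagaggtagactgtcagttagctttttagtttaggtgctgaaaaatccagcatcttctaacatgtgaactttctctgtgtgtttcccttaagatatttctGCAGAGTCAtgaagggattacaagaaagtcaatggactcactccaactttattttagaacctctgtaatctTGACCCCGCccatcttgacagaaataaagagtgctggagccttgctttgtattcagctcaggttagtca

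Akr1c15 held 2 antioxidant response cores and no CCAAT box, and the other 4 genes held 1 to 3 CCAAT boxes and no antioxidant response core. Over the 37 enzymes with a promoter in the table, 3 held the antioxidant response core (8.11%, beside 10.1% of all 33469 promoters) and 22 a CCAAT box (59.5%, beside 34% of all promoters). The forkhead motif was found in Akr1e2 alone (2.7%, beside 3.21%), and the RFX half-site in none (3.67% of all promoters). These are matches of letters, not measured sites.

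Other enzymes of carbonyl chemistry were looked at for comparison. Of 43 further short-chain, medium-chain and quinone reductases measured, 4 fell and 1 rose in fibrotic bronchi, which is 11.6%, close to the 12.5% of all genes called. None was called in non-fibrotic bronchi, where 12 of the 43 had an unadjusted p under 0.05, as did 3933 of all 14217 genes. Nqo1, a quinone reductase, was at 10.00, 10.47 and 9.41 in fibrotic bronchi, 12.38, 12.46 and 12.42 in non-fibrotic bronchi and 11.35 to 12.71 in air controls. It fell by 2.22 against controls (standard error 0.28, adjusted p = 5.1e-05) and by 2.46 against non-fibrotic bronchi (adjusted p = 0.00022). Hsd11b1, which regenerates active glucocorticoid, rose by 1.78 (adjusted p = 0.00051), Adhfe1, a hydroxyacid-oxoacid transhydrogenase, fell by 2.95 (adjusted p = 0.0032), and Hsd17b8, a mitochondrial steroid and fatty acid enzyme, fell to a mean of 9.54 in fibrotic bronchi, against 10.65 in air controls (adjusted p = 0.0028).

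Of 15 genes of NADPH supply, 2 fell in fibrotic bronchi and 0 rose, which is 13.3%, close to the 12.5% of all genes called. They were Me1, the cytosolic malic enzyme, with a change of -1.38 (adjusted p = 0.0023), and Idh1, the cytosolic isocitrate dehydrogenase, with -0.95 (adjusted p = 0.0090). Among molybdenum hydroxylases, which also oxidize aldehydes, Xdh (xanthine dehydrogenase) rose by 1.44 in fibrotic bronchi (adjusted p = 0.0083), and the other 2 measured were not called.

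Since Aldh1a1, Aldh1a2 and Aldh1a3 make retinoic acid, 23 further genes of retinoid handling were read beside them, and 2 fell and 3 rose in fibrotic bronchi. Together these calls are 21.7% of the 23 genes, beside 12.5% of all genes. The lower calls are 8.7%, beside 8.38% of all genes. Rbp4, the retinol carrier, was at 6.28, 7.61 and 6.01 in fibrotic bronchi, 10.63, 11.05 and 10.97 in non-fibrotic bronchi and 8.94 to 11.17 in air controls (log2 change against controls -3.38, adjusted p = 5.1e-05). Rarb, a retinoic acid receptor, was at 6.77, 6.47 and 7.43 in fibrotic bronchi, 9.58, 11.26 and 9.92 in non-fibrotic bronchi and 8.90 to 10.80 in air controls (-2.80, adjusted p = 0.00028). Both lay wholly below the controls. Fabp5, a fatty acid and retinoic acid carrier, rose by 2.55 (adjusted p = 0.0034) and Crabp2, a retinoic acid carrier that the study itself singled out on these arrays, by 4.22 (adjusted p = 0.0098).

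Cyp26a1, which degrades retinoic acid, was at 6.73, 6.61 and 6.82 in fibrotic bronchi and under background on all other arrays, which makes it at least 1.15-fold higher than in controls (adjusted p = 0.0060). Stra6, the membrane receptor for Rbp4, also named by the study, was called in non-fibrotic bronchi. It was at 8.23, 9.55 and 7.99 in fibrotic bronchi, 6.56, 4.42 and 4.10 in non-fibrotic bronchi and 6.96 to 9.01 in air controls, a non-fibrotic change of -3.35 (adjusted p = 0.0096). Like Aldh1a3, it was low on the non-fibrotic arrays and not on the fibrotic ones.

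**Figure D4:**
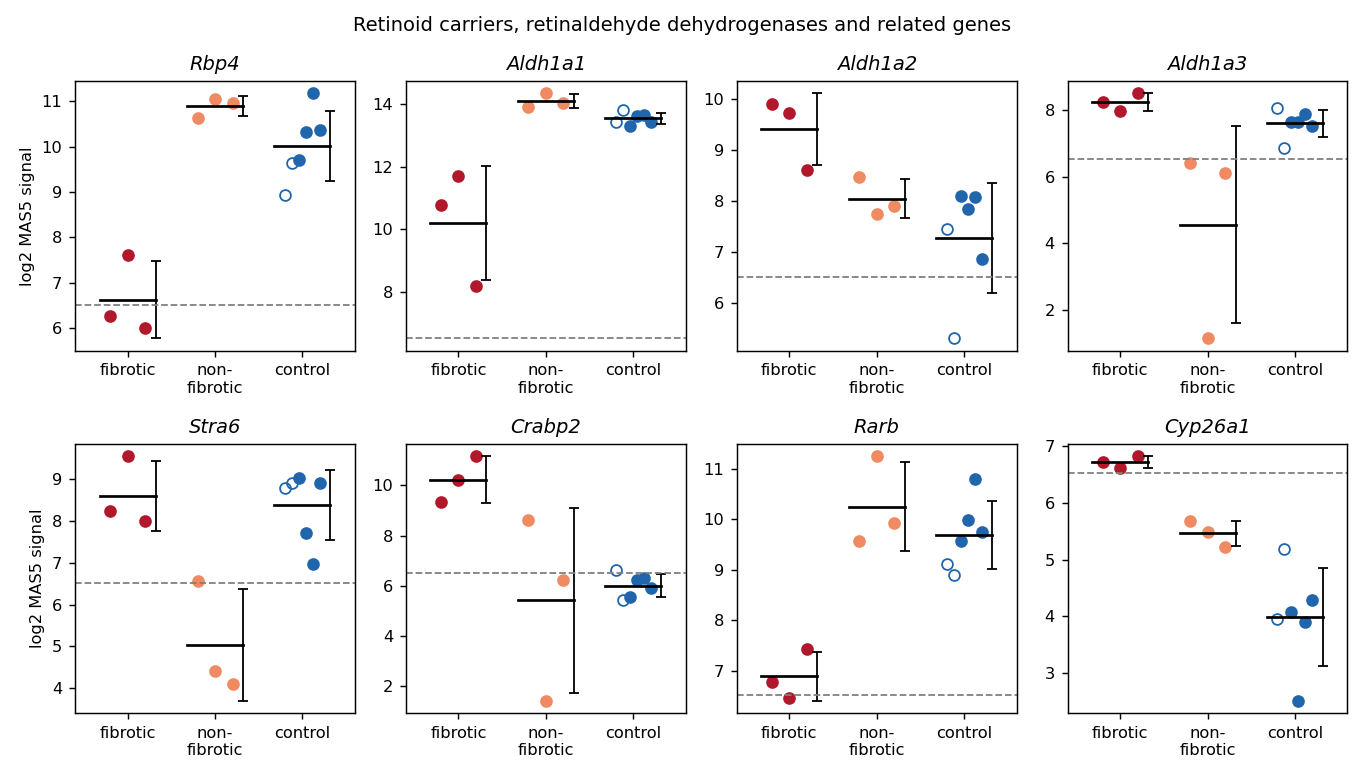
Panels give the log2 MAS5 signal of every array for retinaldehyde dehydrogenases and genes of retinoid carriage, reception and breakdown, with group means and bars of 1 SD. Open circles are controls 1 and 2, and the dashed line is the background level of 6.52. Rbp4, Aldh1a1 and Rarb are low on the fibrotic arrays, Aldh1a2 and Crabp2 are high there, and Aldh1a3 and Stra6 are low on the non-fibrotic arrays.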

How the data were processed

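Laser-captured bronchial RNA was amplified and hybridized, 1 array per specimen. The authors deposited linear MAS5 intensity values (signals), scaled to a trimmed mean of about 500 on each array, with 1 value per probe set. The deposited intensities were taken to log2 with no pseudocount. The series text names another array than the probe set identifiers, which belong to a rat 3′ expression array, and genes were named through GEO's annotation of those identifiers (20826 probe sets with 1 symbol, 436 with several, 9780 with none). Array number limits the precision.

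A model of the 3 groups was fitted with limma 3.58.1 (lmFit, eBayes with an intensity trend, R 4.3.3) to 31042 probe sets, with Benjamini-Hochberg adjustment over all of them and a threshold of 0.01. In simulated data with 3 against 6 arrays, 3.03%, 25.4% and 46.3% of probe sets shifted by 1, 2 and 3 log2 units were recovered for fibrotic against control. Only 66 or 67 probe sets were shifted by each amount, whereas 2914 were called in the data. The adjustment was therefore stricter in the simulation, and these shares do not give the sensitivity of the real fit. Genes were named where called, or by role (the diketone, aldehyde and glyoxal enzymes described). From the lists of other genes up to 4 called genes of smallest p were named, and Crabp2 and Stra6 were added as genes named by the study. The members and lists were chosen with earlier results of these data known. Protein sequences were not analysed here.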

Additional observations from a re-analysis of the deposited data

Results flagged for a closer look

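In 6 enzymes fibrotic and non-fibrotic bronchi of exposed rats differed by limma's direct test between them, the same test as reported above. The log2 differences, fibrotic minus non-fibrotic, were -3.89 for Aldh1a1, -3.07 for Akr1c15, -2.34 for Aldh6a1, -2.21 for Aldh3b1, -1.57 for Aldh2 and -1.35 for Akr1e2. Among the air controls, control 2 stood low for Akr1b10, where its gap to the next array was 0.692 of the range of the 6 controls, and for Glo1, where the gap was 0.667 of the range. Of the 44 enzymes tested for such a gap in the controls 6 exceeded the limit, and chance gives about 1 in 20.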

How the results depend on the processing

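Every call of a member kept its direction in each of the 15 other settings and 12 fits without 1 array that gave it a value, but many calls were lost. In some of these the direction could not change, because they altered only the threshold, the probe sets kept or the variance estimate. The same holds where the arrays left out belonged to a group not compared. Members called in fibrotic bronchi against controls, 11 at the reported setting, ranged over 8 to 12 without 1 array, those in non-fibrotic bronchi over 1 to 1, and those between fibrotic and non-fibrotic bronchi over 3 to 7. In the same order of comparisons, an adjusted p under 0.05 gave 20, 3 and 11, and controls 1 and 2 alone gave 3, 0 and 3. An unadjusted p under 0.001 with a fold over 2 gave 2 in non-fibrotic bronchi. Between fibrotic and non-fibrotic bronchi, the fit without an intensity trend gave 2, array weights 3 and the 2 groups alone 2.

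Probe sets called, 2914, 162 and 1185, ranged over 1718 to 3443, 41 to 371 and 598 to 1921 without 1 array. They were 5541, 1811 and 2970 at 0.05, and 408, 2 and 514 with controls 1 and 2. Array weights gave 4863 in fibrotic bronchi. In non-fibrotic bronchi the p and fold rule gave 892, a floor 348, a pseudocount 333, quantile normalization 282, no trend 76, controls 3 to 6 alone 1016 and the set of arrays as a random block 58. Between exposed groups no trend gave 504, weights 610 and the 2 groups alone 292.

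Among the 22 enzymes named by the rule, 16 differences reversed, none of them called. Against controls, Akr1b10 in fibrotic bronchi turned to -0.11 with a floor, -0.081 with a pseudocount, -0.36 with weights, -0.39 with controls 3 to 6, -0.55 as the mean of its probe sets and -1.31 with its second probe set. In non-fibrotic bronchi Akr7a3 turned to -0.49, Aldh3a1 to 0.39 and Hagh to -0.34 with weights, and to -0.77, 0.31 and -0.36 with controls 3 to 6. With controls 1 and 2, Akr7a3 was 0.22 and Hagh 0.39 in fibrotic bronchi and Akr1a1 0.0040 in non-fibrotic bronchi. Akr1b1 was 0.62 as the mean and 1.54 with its second probe set in non-fibrotic bronchi, and -1.02 with the second between exposed groups. Without 1 array, fibrotic differences spanned -3.06 to 0.19 (Adh7), -0.68 to 0.99 (Akr1b10) and -0.42 to 0.0067 (Akr1b8). Non-fibrotic ones spanned -0.23 to 0.12 (Akr1a1), -0.52 to 0.019 (Akr1b1), -0.36 to 0.013 (Akr1e2), -0.45 to 0.31 (Akr7a3), -0.55 to 0.30 (Aldh3a1), -0.40 to 0.22 (Aldh3b1) and -0.11 to 0.23 (Hagh). Between exposed groups they spanned -0.90 to 2.62 (Adh7), -0.11 to 1.23 (Akr1b8) and -0.62 to 0.10 (Aldh4a1). The causes were not tested. No paired analysis was possible because the labels do not tie an array to a rat. Signals near the background level of 6.52 limit Akr1b10, Adh7, Aldh3a1 and the dim Akr1c genes.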
